A study of Mus musculus with 12 samples.

Results

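The 10 genes described here are the transcription factors Atf4, Atf3, Ddit3 (CHOP), Cebpb and Nupr1, together with Trib3, Chac1, Ppp1r15a, Sesn2 and Ddit4, which act around or downstream of ATF4 and CHOP in the cellular stress response. They were chosen by symbol, through the gene identifiers of the mouse annotation, and the symbols were picked with earlier results of these data known. All 10 were found among the 43432 gene identifiers listed in the tables, and all 10 passed the filter on low counts in each fit. The samples were neural stem cells (NSCs) of the subventricular zone, the stem cell niche along the lateral ventricles, taken from male wild-type C57BL/6 mice of 6 to 8 weeks. They were grown as monolayers on poly-ornithine and laminin with B27, EGF and bFGF for 4 days in low (LF, 1.5 µM), medium (MF, 10 µM, the reference dose) or high folic acid (HF, 80 µM). Polysome mRNA, taken from the gradient fractions that carry several ribosomes per mRNA, and total mRNA were sequenced after poly(A) selection. Each dose had 2 libraries per fraction, which gave 12 libraries in 6 groups. Before lysis, the cells for polysome mRNA were exposed to cycloheximide, an inhibitor of translation elongation that holds ribosomes on mRNA, and the methods do not mention it for total mRNA. The replicates are called biological duplicates, and whether each had its own animals or cultures is not stated, so every p-value below measures the spread between these libraries.

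In the integrated stress response, kinases that sense amino acid shortage, misfolded protein in the endoplasmic reticulum, heme shortage or double-stranded RNA phosphorylate the initiation factor eIF2. General initiation then drops, while a few mRNAs with upstream reading frames, Atf4 among them, are translated better. ATF4 protein then switches on genes for amino acid supply, and with CHOP it drives regulators of cell survival and of the response itself. Short upstream reading frames are also known in the mouse mRNAs of Ddit3 and Ppp1r15a.

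The letters of 2 promoter motifs were searched, on both strands, in the RefSeq windows (GRCm38.p6) that span 250 bases before to 50 bases after each start site, because ATF4, the C/EBP factors and their bZIP relatives are known to bind such letters. One is the C/EBP-ATF response element TGATGNAA, which reads TTNCATCA on the other strand, and the other is the cAMP response element TGACGTCA. All 10 genes had a window. The C/EBP-ATF element stood in the windows of 4 of the 10 genes, against 4.51% of all 27025 genes in the table (3.97% of 32851 windows), and the cAMP response element in that of 1 gene, against 2.03% of all genes (1.79% of windows). The matches are shown with 10 flanking bases on each side, on the strand of the gene, with the motif in capitals.
Atf3: cttctcgcacTTGCATCAccaagtccgc
Nupr1: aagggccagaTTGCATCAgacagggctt
Chac1: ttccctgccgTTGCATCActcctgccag
Trib3: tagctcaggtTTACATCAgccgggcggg
Ppp1r15a: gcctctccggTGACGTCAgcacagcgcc
All 4 C/EBP-ATF matches lay in the same orientation relative to the gene. Atf3 (chr1:191183426-191183453, minus strand) and Nupr1 (chr7:126625563-126625590, minus strand) held the motif from base -110 relative to the start site. In Chac1 (chr2:119351039-119351066, plus strand) it began at base -193, and in Trib3 (chr2:152344029-152344056, minus strand) at base 15. The cAMP response element of Ppp1r15a (chr7:45526263-45526290, minus strand) began at base -12. The 2 motifs do not overlap each other in any of these windows. Bases are counted from the RefSeq start site, which is not the end of the gene span given below for Atf3, Nupr1, Chac1 and Trib3, and the Trib3 motif lies outside that span. Such matches describe letters and are not shown to be bound here.

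The annotated leaders of the mRNAs differed as well. In the transcript with the longest coding sequence, ATG triplets upstream of the start codon numbered 3 in Atf4, 3 in Ppp1r15a, 2 in Ddit3, 1 each in Atf3, Nupr1 and Sesn2, and 0 in Trib3, Chac1, Cebpb and Ddit4. Of 12553 tested genes with an annotated leader, 49.8% held at least 1. The leaders were 594 bases long in Atf4, 283 in Ppp1r15a and 186 in Ddit3, against a median of 169 bases over those genes.

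Library totals ran from 24193468 to 28170296 counts in polysome mRNA and from 20506797 to 23593252 in total mRNA. Replicates of polysome LF stood apart, with 20.6% of 14421 genes more than 2-fold apart, against 2.3% to 4.08% in the other 5 groups. For the genes described here, counts passing the main tests that rest on this pair are also given without each of its libraries. The other gene lists, the markers, the correlations and the order of mean levels by dose are given from all libraries only. All 15 neural stem cell markers reached 1 TPM in some library, whereas 5 of 6 endothelial and 5 of 8 microglia and macrophage markers stayed under 1 TPM in every library, Cdh5, Cldn5, Csf1r and Cx3cr1 among them. Markers of other neural cells were detected. In total mRNA the astrocyte markers summed to 471 to 502 TPM, oligodendrocyte lineage markers to 306 to 373 TPM and neuron markers to 214 to 232 TPM.

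Atf4 (ENSMUSG00000042406, chr15:80255184-80257541, plus strand, mm10), the hub of the response, was the most abundant of the 10 mRNAs per length in both fractions. In polysome mRNA it had 545 and 945 TPM at LF, 840.4 and 993 TPM at MF, and 1206 and 1221 TPM at HF. In total mRNA it had 134 and 138 TPM at LF, 144 and 138 TPM at MF, and 145 and 148 TPM at HF. The fractions did not overlap at any dose, and within polysome mRNA LF replicate 1 was the lowest library. Polysome over total, Atf4 was 6.73-fold higher at LF, 8.05-fold at MF and 10.2-fold at HF (log2 2.75 ± 0.234, 3.01 ± 0.236 and 3.35 ± 0.240, SE; edgeR adjusted p of 1.28e-05, 8.53e-06 and 3.81e-06).

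Atf3 (ENSMUSG00000026628, chr1:191170296-191218039, minus strand), a bZIP factor induced by ATF4 and by many other stresses, was close to the detection floor of total mRNA. Its polysome levels were 22.02 and 39.5 TPM at LF, 29.04 and 47.6 TPM at MF, and 68.7 and 66.4 TPM at HF. Total mRNA held 0.46 and 1.18 TPM at LF, 1.3 and 0.40 TPM at MF, and 1.13 and 0.77 TPM at HF, from 9 to 21 counts per library. Effective length, which scales counts to TPM, ran from 624 to 1704 bases across these total libraries, so TPM and counts differ in order. Both HF polysome libraries lay above all 4 others, while the total libraries showed no order by dose. The fitted folds, polysome over total, were 53.2 at LF, 80.3 at MF and 142 at HF.

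Ddit3 (ENSMUSG00000025408, chr10:127290774-127296288, plus strand) encodes CHOP, which ATF4 induces and which promotes cell death under prolonged stress. Its polysome levels were 254 and 438 TPM at LF, 524 and 716 TPM at MF, and 1174 and 1053 TPM at HF, so that the 3 doses did not overlap. In total mRNA the levels were 25.4 and 30.3 TPM at LF, 31.5 and 25.1 TPM at MF, and 28.8 and 24.7 TPM at HF, and the doses overlapped. Polysome over total, the fold was 15.1 at LF, 28.3 at MF and 55.7 at HF (log2 3.92 ± 0.299, 4.82 ± 0.311 and 5.80 ± 0.324, SE). Ddit3 shares 68 of its 1713 exon bases with Mars, the methionyl-tRNA synthetase gene on the opposite strand, which had 1764 to 9486 counts per library. The strand setting of the counting is not given in the sources used here, and the 178 to 253 counts of Ddit3 in total mRNA are therefore uncertain.

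Cebpb (ENSMUSG00000056501, chr2:167688915-167690418, plus strand), a C/EBP factor that can pair with ATF4 and CHOP, was the least abundant of the 10 in polysome mRNA. It had 3.96 and 5.23 TPM at LF, 2.75 and 4.46 TPM at MF, and 5.79 and 4.07 TPM at HF there, and 1.3 and 0.88 TPM at LF, 0.84 and 0.69 TPM at MF, and 0.58 and 0.70 TPM at HF in total mRNA. The doses overlapped in polysome mRNA, and in total mRNA both LF libraries were the highest. Polysome over total, Cebpb was 5.16-fold higher at LF, 5.81-fold at MF and 9.47-fold at HF. These values rest on 62 to 132 counts in polysome and 10 to 21 counts in total libraries, and 312 of the 1504 exon bases are shared with Tmem189 on the opposite strand (401 to 916 counts), so they are uncertain.

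Nupr1 (ENSMUSG00000030717, chr7:126623249-126630861, minus strand) encodes a small stress-induced nuclear protein. Polysome mRNA held 361 and 378 TPM at LF, 561 and 657 TPM at MF, and 865 and 689 TPM at HF, again with no overlap between doses. Total mRNA held 31.5 and 24.3 TPM at LF, 33.0 and 33.7 TPM at MF, and 33.7 and 37.3 TPM at HF. The 2 LF libraries were the lowest in both fractions. Nupr1 was 16.5-fold higher in polysome than in total mRNA at LF, 22.7-fold at MF and 26.8-fold at HF.

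**Figure D1:**
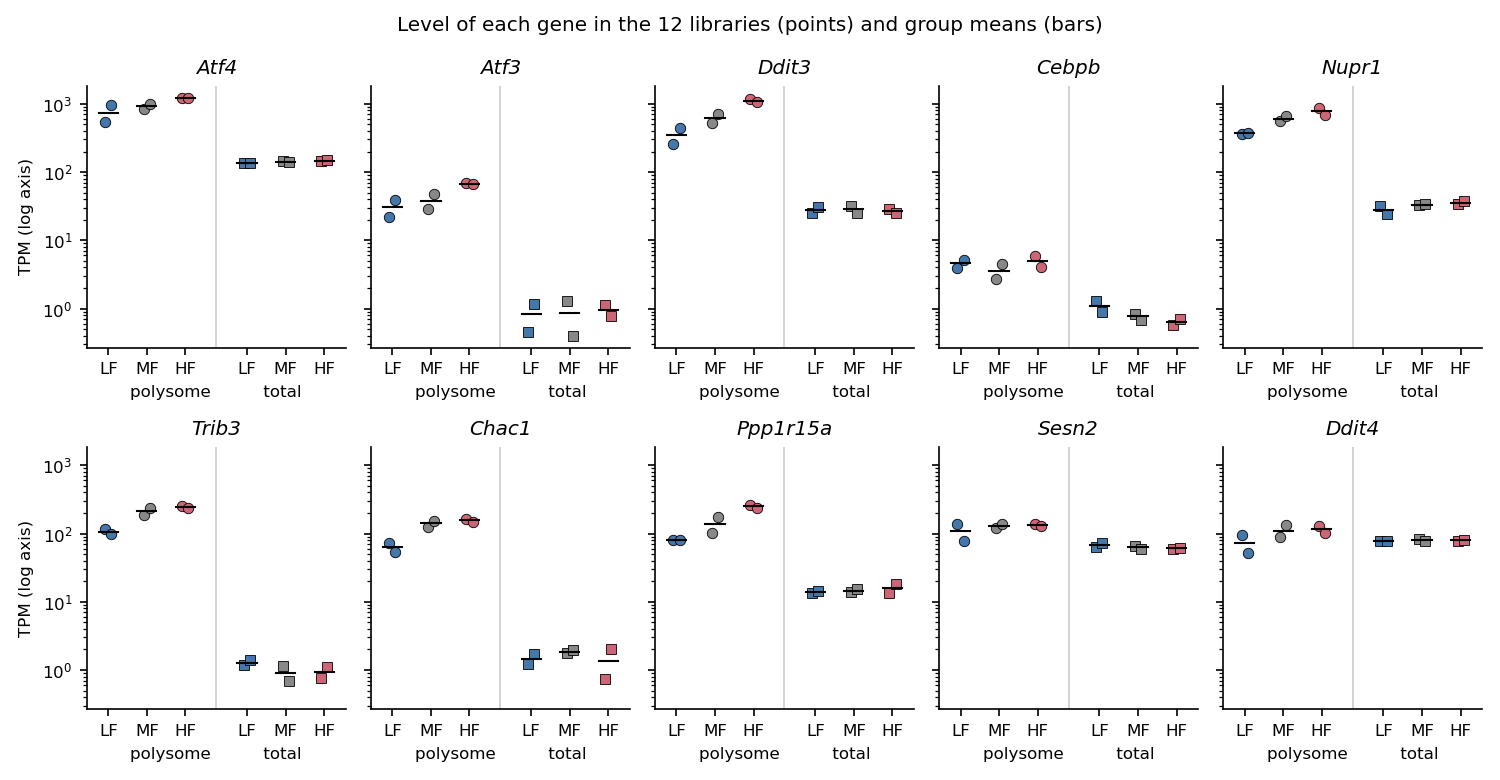
TPM (log axis) of the 10 genes in polysome mRNA (circles, left) and total mRNA (squares, right) at LF, MF and HF, with 1 point per library and a bar at the mean of the 2 libraries of a group. Both polysome libraries lie above both total libraries of the same dose for 9 of the genes at every dose, Trib3, Chac1 and Atf3 are near 1 TPM in total mRNA, and the fractions of Ddit4 overlap at LF.

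Trib3 (ENSMUSG00000032715, chr2:152337422-152344032, minus strand), a pseudokinase that CHOP and ATF4 induce and that restrains both, showed the widest gap between fractions. Polysome mRNA held 115 and 97.5 TPM at LF, 185 and 240.4 TPM at MF, and 250.5 and 234 TPM at HF. Total mRNA held 1.17 and 1.39 TPM at LF, 1.14 and 0.70 TPM at MF, and 0.77 and 1.12 TPM at HF, from 16 to 36 counts. Both LF polysome libraries lay below the other 4, and MF and HF overlapped. The fitted fold, polysome over total, was 100 at LF, 286 at MF and 317 at HF (log2 6.65 ± 0.240, 8.16 ± 0.257 and 8.31 ± 0.257, SE). By p, Trib3 ranked 1 among all 14421 genes at LF and at MF and 2 at HF.

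Chac1 (ENSMUSG00000027313, chr2:119351229-119354381, plus strand), an enzyme that degrades glutathione, followed the same shape. It had 72.5 and 53.5 TPM at LF, 126 and 155 TPM at MF, and 165 and 147 TPM at HF in polysome mRNA. In total mRNA it had 1.22 and 1.69 TPM at LF, 1.76 and 1.97 TPM at MF, and 0.73 and 2.02 TPM at HF, from 14 to 35 counts. LF polysomes were again the lowest, with overlap between MF and HF. The fold was 51.8 at LF, 93.2 at MF and 142 at HF. The HF value depends on the total libraries, since the log2 fold of Chac1 there was 6.58 without total HF replicate 1 and 8.04 without total HF replicate 2.

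Ppp1r15a (ENSMUSG00000040435, chr7:45522916-45526268, minus strand) encodes GADD34, the phosphatase subunit that takes the phosphate off eIF2 and so closes the feedback loop. Its polysome levels were 80.7 and 81.6 TPM at LF, 103 and 177 TPM at MF, and 263 and 237 TPM at HF, with no overlap between doses. Its total levels were 13.5 and 14.5 TPM at LF, 13.8 and 15.2 TPM at MF, and 13.3 and 18.1 TPM at HF, with overlap of all doses. The 18.1 TPM of HF replicate 2 came from 360 counts and an effective length of 1553 bases. Replicate 1 had 388 counts and 2056 bases. Polysome over total, Ppp1r15a was 7.06-fold higher at LF, 11.7-fold at MF and 22.6-fold at HF (log2 2.82 ± 0.22, 3.55 ± 0.226 and 4.501 ± 0.236, SE).

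Sesn2 (ENSMUSG00000028893, chr4:132492032-132510501, minus strand) and Ddit4 (ENSMUSG00000020108, chr10:59949669-59951834, minus strand), which encode sestrin 2 and REDD1, restrain the growth kinase complex mTORC1. Sesn2 had 139 and 76.9 TPM at LF, 122 and 136 TPM at MF, and 138 and 127 TPM at HF in polysome mRNA, against 63.9 and 72.6 TPM at LF, 65.7 and 60.03 TPM at MF, and 59.4 and 61.6 TPM at HF in total mRNA. Ddit4 had 94.7 and 51.3 TPM at LF, 89.4 and 132 TPM at MF, and 130.2 and 103 TPM at HF in polysome mRNA, against 79.0 and 78.6 TPM at LF, 81.8 and 77.9 TPM at MF, and 78.5 and 80.0 TPM at HF in total mRNA. For both genes polysome LF replicate 2 was the lowest polysome library, and for Ddit4 it lay below every total library. The fold of Sesn2, polysome over total, was 1.92 at LF, 2.54 at MF and 2.71 at HF. That of Ddit4 was 1.12 at LF, which did not pass (log2 0.16 ± 0.245, SE; edgeR adjusted p = 0.601), 1.71 at MF and 1.82 at HF (edgeR adjusted p of 0.021 and 0.0123). The calls of Ddit4 were not firm. At MF its adjusted p was 0.0797 without total MF replicate 1, 0.0959 without total MF replicate 2 and 0.174 without polysome MF replicate 2 (edgeR). At HF it was 0.0641 without total HF replicate 1, 0.0576 without total HF replicate 2 and 0.092 without polysome HF replicate 1 (edgeR). At LF the log2 fold was -0.24 without polysome LF replicate 1 and 0.51 without polysome LF replicate 2, which was called. Sesn2 at LF was not called when LF libraries alone were fitted (log2 0.93; edgeR adjusted p = 0.0885).

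As a group, 9 of the 10 genes were called higher in polysome than in total mRNA at LF, and 10 of 10 at both MF and HF, by adjusted p below 0.05 together with a fold over 1.2. The same call was made for 25.0% of all 14421 genes tested at LF, 26.0% at MF and 25.7% at HF. For the 8 genes other than Sesn2 and Ddit4, the edgeR adjusted p lay between 7.93e-08 and 0.000294 over the 3 doses. The median log2 fold of the 10 genes was 3.37 at LF, 4.03 at MF and 4.62 at HF, beside -0.11, -0.05 and -0.12 over all genes. They ranged from Ddit4 and Sesn2 at the low end to Trib3, Chac1 and Atf3 at the high end, and the folds of these 3 rest on 9 to 36 counts per total library. Together they took 0.154% and 0.187% of the counts of the LF polysome libraries, 0.222% and 0.277% at MF, and 0.349% and 0.307% at HF, against 0.0349% to 0.0382% in the 6 total libraries. Because exposure to cycloheximide before lysis goes with the fraction, the effect of ribosome load and that of the handling of the polysome cultures cannot be told apart in these ratios.

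**Figure D2:**
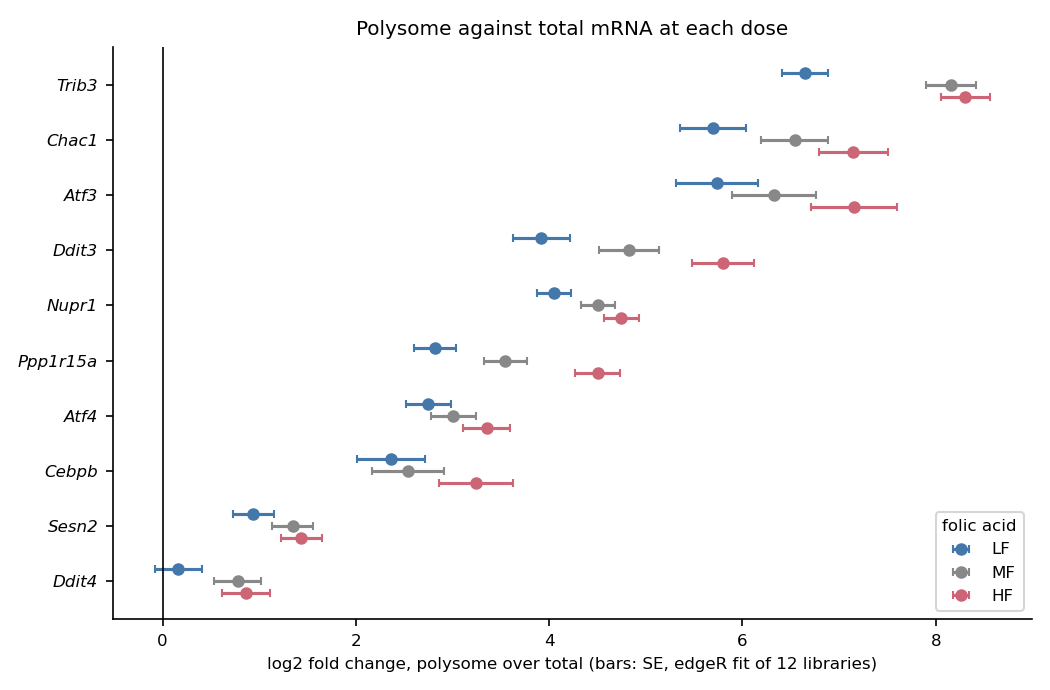
Log2 fold change of polysome over total mRNA for the 10 genes at LF, MF and HF, with standard errors from the edgeR fit of 12 libraries. Trib3 reaches 8.31 at HF and Ddit4 stays under 1 at each dose. For all 10 genes the point moves to the right in the order LF, MF, HF. Atf4 (3.17 at LF, 3.06 at MF) and Cebpb (2.64 at LF, 2.59 at MF) lose this order without polysome LF replicate 1. Cebpb also loses it without total LF replicate 1 or polysome MF replicate 2. HF falls below MF for Trib3 without total MF replicate 1, total HF replicate 1 or polysome MF replicate 1. It does so for Ddit4 without polysome MF replicate 1 or polysome HF replicate 1.

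The next question was whether folic acid shifted these mRNAs on polysomes. Mean log2 CPM on polysomes was lowest at LF and highest at HF for 9 of the 10 genes, all but Cebpb, an order that 14.8% of all genes had. In total mRNA 3 of the 10 genes, Atf4, Nupr1 and Ddit4, had that order, against 20.0% of all genes. On polysomes, fitted log2 folds of some of the 9 genes went against this order with a library left out. For LF against MF, Atf4 had 0.09 without LF replicate 1 and Sesn2 had 0.07 without LF replicate 2. For HF against MF, Ddit4 went down to -0.14 and Sesn2 to -0.01. In edgeR with the low-count filter, all libraries and no term for replicate number, no gene of the 10 was called between doses. Other settings gave calls in polysome mRNA, in TE and, without total LF replicate 1, in total mRNA.

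Between HF and LF polysome mRNA, 0 of the 10 genes were called by edgeR, beside 0.0149% of the 13433 genes tested. All 10 log2 fold changes were positive, with a median of 1.16 beside 0.01 for all genes, and 7 of them had an unadjusted p under 0.05, against 14.0% of all genes. Both HF libraries lay above both LF libraries for 8 of the 10 genes, all but Cebpb and Sesn2, against 20.5% of all genes. The largest ratio was that of Ddit3 at 3.49 (log2 1.80 ± 0.310, SE; edgeR adjusted p = 0.158), followed by Ppp1r15a at 3.12 (log2 1.64 ± 0.261, SE; edgeR adjusted p = 0.155). Chac1 had a ratio of 2.54, Atf3 of 2.38, Trib3 of 2.33 and Nupr1 of 2.16, with edgeR adjusted p between 0.155 and 0.199. Atf4 itself had a ratio of 1.66 (log2 0.73 ± 0.269, SE; edgeR adjusted p = 0.298) and Ddit4 of 1.65 (edgeR adjusted p = 0.360). Sesn2 had a log2 fold of 0.33 ± 0.262 and Cebpb of 0.13 ± 0.369 (SE).

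The count for HF against LF changed with the setting. With both LF libraries kept but no filter on low counts, edgeR called 6 of the 10 genes, Ddit3, Atf3, Chac1, Nupr1, Trib3 and Ppp1r15a, with 1.26% of all genes called. Without LF replicate 1, edgeR called 8 of the 10 genes higher in HF, all but Atf4 and Cebpb, where 39.3% of all genes were called in either direction. Without LF replicate 2, it called 7, namely Ddit3, Atf3, Chac1, Nupr1, Trib3, Ppp1r15a and Atf4, where 15.4% of all genes were called. In these 2 fits the lone LF library was assumed to vary like the other groups. Ddit3 had a log2 fold of 1.39 ± 0.190 without LF replicate 1 and 2.33 ± 0.200 without LF replicate 2 (SE; edgeR adjusted p of 8.21e-05 and 2.11e-05). Trib3 had 1.28 ± 0.177 without LF replicate 1 and 1.14 ± 0.175 without LF replicate 2, and Chac1 had 1.52 ± 0.176 and 1.17 ± 0.171 in the same fits (SE), so both genes stayed above 1 on the log2 scale whichever LF library was left out. Atf4 had 0.34 ± 0.161 without LF replicate 1 and 1.22 ± 0.167 without LF replicate 2 (SE; edgeR adjusted p of 0.113 and 0.000914), so its call depended on which LF library was left out. DESeq2 on all 6 libraries called 6 of the 10 genes higher in HF, with 1.74% of all genes called.

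LF polysomes were also set against the MF reference. By edgeR 0 of the 10 genes were called, beside 0.0223% of all genes, with 9 of 10 log2 fold changes negative (median -0.69, all genes 0.01) and 5 at an unadjusted p under 0.05, against 17.3% of all genes. Both LF libraries lay below both MF libraries for 5 genes, Ddit3, Trib3, Chac1, Nupr1 and Ppp1r15a, against 23.8% of all genes. Chac1 had a log2 fold of -1.18 ± 0.216, Trib3 of -1.02 ± 0.192 and Ddit3 of -0.95 ± 0.304 (SE; edgeR adjusted p of 0.121, 0.124 and 0.206). Ppp1r15a had -0.77, Nupr1 -0.75, Ddit4 -0.62, Atf3 -0.41, Atf4 -0.31 and Sesn2 -0.28, and Cebpb had 0.33. Without LF replicate 1 the count called lower was 6 (50.5% of all genes called in either direction), without LF replicate 2 it was 5 (6.83%), DESeq2 on all libraries gave 2 (3.31%), and edgeR with no filter gave 3 (2.71%). Chac1, Trib3, Ddit3 and Nupr1 were called lower in LF whichever LF library was left out.

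HF polysomes were set against MF as well. By edgeR 0 of the 10 genes were called and 0.0% of all genes. All 10 log2 fold changes were positive (median 0.39, all genes 0.00), and 3 had an unadjusted p under 0.05, namely Ppp1r15a at 0.87 ± 0.256, Ddit3 at 0.85 ± 0.303 and Atf3 at 0.84 ± 0.315 (SE; edgeR adjusted p = 0.948 for each), against 3.37% of all genes. Both HF libraries lay above both MF libraries for Atf4, Atf3, Ddit3, Nupr1 and Ppp1r15a, 5 of the 10, against 25.4% of all genes. Trib3 and Chac1, with the widest gap between MF and LF, had log2 folds of 0.20 ± 0.190 and 0.16 ± 0.213 between HF and MF (SE). A fit of the 4 HF and MF polysome libraries alone called 2 of the 10 genes higher in HF, with 5.34% of all genes called, and these were Ddit3 and Atf3. The same 2 genes were called in the fit of 3 doses without LF replicate 1 (5.12% of all genes) or LF replicate 2 (5.68%). DESeq2 called 0 of the 10 and 0.104% of all genes. These 3 dose comparisons share libraries and are not independent of one another.

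**Figure D3:**
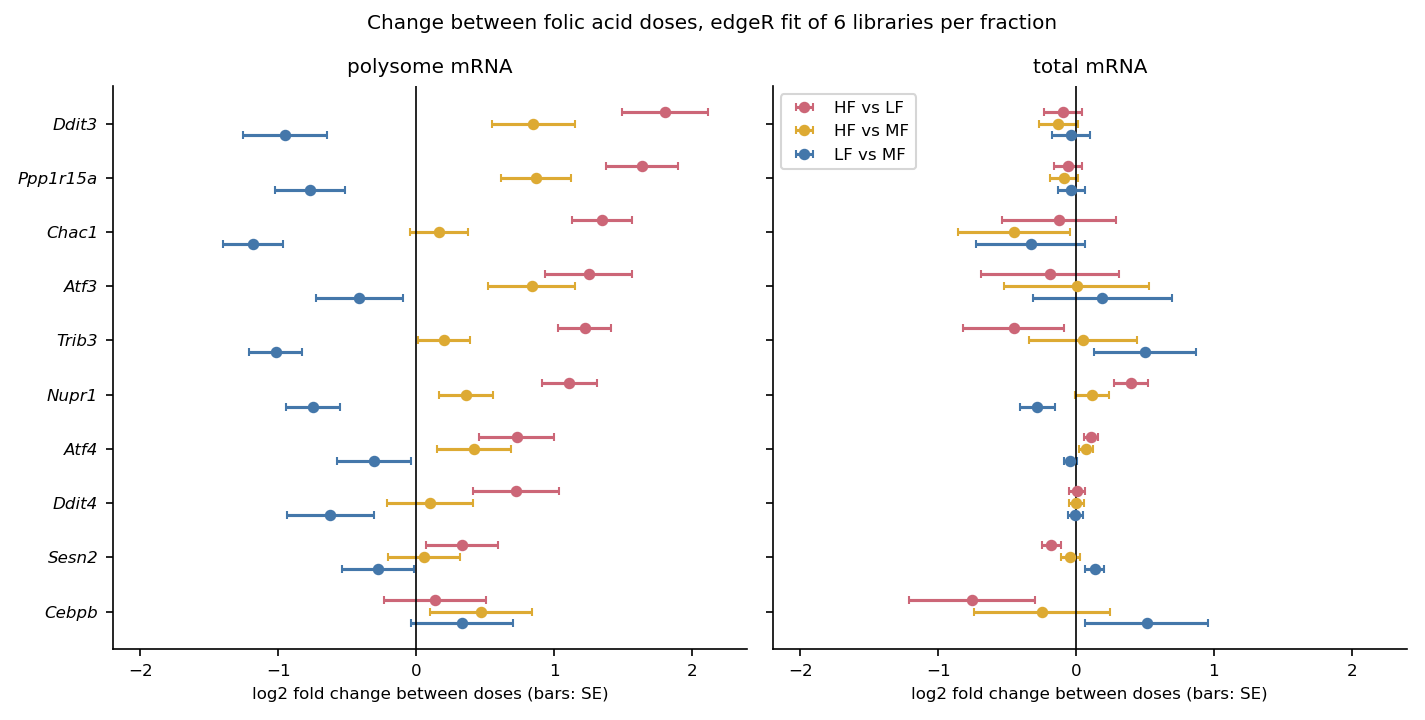
Log2 fold change between doses for the 10 genes in polysome mRNA (left) and total mRNA (right), with standard errors, from edgeR fits of 6 libraries each. In polysome mRNA HF over LF is positive for 10 of 10 genes and LF over MF negative for 9 of 10, whereas in total mRNA the points scatter around 0, with wide errors for Chac1, Atf3, Trib3 and Cebpb.

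Total mRNA of the 10 genes gave no call either. Between HF and LF 0 of 10 were called by edgeR, beside 1.79% of 13912 genes, and 3 had an unadjusted p under 0.05, against 12.6% of all genes. They were Nupr1 at a log2 fold of 0.40 ± 0.125, Sesn2 at -0.18 ± 0.069 and Atf4 at 0.11 ± 0.050 (SE; edgeR adjusted p of 0.122, 0.275 and 0.360). Both HF libraries lay above both LF libraries for Atf4 and Nupr1, 2 of 10, against 20.5% of all genes. For Ddit3 the 4 total libraries of LF and HF spanned 24.7 to 30.3 TPM. Between LF and MF 0 of 10 were called (0.00719% of all genes) and 1 had an unadjusted p under 0.05 (6.27% of all genes), and between HF and MF the counts were 0 (0.0863%) and 0 (6.98%). DESeq2 called 0 of the 10 in each comparison, beside 0.793% of all genes for HF against LF, 0.00961% for LF against MF and 0.101% for HF against MF. Without total LF replicate 1, edgeR called 2 of the 10 between HF and LF, Sesn2 and Nupr1, with 2.99% of all genes called. Atf3, Cebpb, Chac1 and Trib3 had 9 to 36 counts per total library, and the standard errors of their log2 folds between HF and LF were 0.367 to 0.5.

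Polysome abundance relative to total abundance, or translation efficiency (TE), was compared between doses as an interaction in the fit of 12 libraries. For HF against LF 0 of the 10 genes were called by edgeR, beside 0.0971% of 14421 genes, all 10 values were positive (median log2 1.15, all genes 0.00), and 5 had an unadjusted p under 0.05, against 14.7% of all genes. Ppp1r15a had a log2 change of 1.68 ± 0.295, Trib3 of 1.66 ± 0.334 and Ddit3 of 1.88 ± 0.389 (SE; edgeR adjusted p of 0.0563, 0.0771 and 0.0786). Chac1 had 1.45 ± 0.478 and Nupr1 0.70 ± 0.224, and Atf4 had 0.60 ± 0.310 (SE; edgeR adjusted p of 0.195, 0.186 and 0.411). DESeq2 called Ppp1r15a, Trib3, Ddit3 and Chac1, 4 of the 10, with 3.21% of all genes called. Without polysome LF replicate 2, edgeR called 5 of the 10, Ddit3, Nupr1, Trib3, Ppp1r15a and Atf4, with 17.2% of all genes called. Without polysome LF replicate 1 the count was 7, with 37.6% of all genes called, and without polysome MF replicate 1 or without replicate 2 it was 1, Ppp1r15a, with 0.0202% of all genes called in each. With no filter it was 3, Ddit3, Trib3 and Ppp1r15a, with 0.858% of all genes called. The value of Chac1 was 0.88 without total HF replicate 1 and 2.34 without total HF replicate 2.

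For TE in LF against MF, 0 of 10 genes were called by edgeR (0.236% of all genes), all 10 values were negative with a median log2 of -0.60, and 3 had an unadjusted p under 0.05 (15.8% of all genes). Trib3 stood lowest at -1.51 ± 0.337 (SE; edgeR adjusted p = 0.106). DESeq2 called Trib3 alone of the 10 (2.94% of all genes), as did edgeR with no filter (1.05%). Its log2 fold between LF and MF was -1.02 ± 0.192 in polysome mRNA and 0.50 ± 0.371 in total mRNA (SE). The total value rests on 16 to 36 counts per library. Without polysome LF replicate 1, edgeR called Ddit4, Sesn2 and Trib3 (46.2% of all genes), and without LF replicate 2 it called Ddit3, Trib3 and Atf4 (6.76%). For TE in HF against MF, 0 of 10 were called (0.0% of all genes) and 2 had an unadjusted p under 0.05 (4.15% of all genes), Ddit3 at 0.98 ± 0.387 and Ppp1r15a at 0.95 ± 0.294 (SE; edgeR adjusted p = 0.982 for both). A fit limited to the HF and MF libraries called 1 of the 10 genes, Ddit3 (1.52% of all genes). Ddit3 was also called without polysome LF replicate 1 (2.88%) or LF replicate 2 (2.99%), and DESeq2 called 0 of the 10 (0.142%).

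The 10 genes also varied together to different degrees. After the mean of each fraction was taken away, Pearson r of log2 CPM over the 12 libraries was 0.93 between Ddit3 and Ppp1r15a, 0.92 between Atf4 and Ddit3, and 0.77 between Trib3 and Chac1. Cebpb had r between -0.08 and 0.37 with each of the others, and Sesn2 and Atf4 had -0.08. Among genes outside the 10, those most like Atf4 were Eprs (r = 0.976), Slfn9 (0.976) and Hspa9 (0.972). Those most like Ddit3 were Nop14 (0.976), Ttc37 (0.961) and Zfp317 (0.961). Trib3 was most like Angptl6 (0.925), Fgf21 (0.915) and Gdf9 (0.907). The points share library depth and fraction, and these genes are the highest of 14421, so the values are a description.

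The wider pathway was read from lists of genes. At MF 26.0% of all genes were called higher in polysome mRNA and 29.3% lower. Of 15 ATF4 targets in amino acid and one-carbon metabolism, 14 were called higher in polysome than in total mRNA at MF and 0 lower, with a median log2 fold of 3.14. Bcat1, which starts the breakdown of branched-chain amino acids, was 48.2-fold higher, Mthfd2 of mitochondrial folate metabolism 14.9-fold, Pycr1 of proline synthesis 12.2-fold and Aldh18a1, the first enzyme of that route, 7.17-fold. Of 11 amino acid transporters known as ATF4 targets all 11 were called higher (median log2 2.84), among them Slc7a5 at 16.4-fold and its heavy chain Slc3a2 at 15.7-fold. Of 12 tRNA synthetases and the exporter Xpot, 13 of 13 were called higher (median log2 2.25), with Sars at 6.93-fold and Cars at 6.70-fold. Of 20 other ATF4 or CHOP targets 15 were called higher and 1 lower. Among them Stc2, a secreted glycoprotein, was 32.7-fold higher. Fgf21, a secreted factor, had 658 and 949 counts in MF polysomes, against 1 and 0 counts in MF total mRNA.

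Most lists of genes that act upstream of ATF4 or beside it gave calls in both directions at MF. In all of them but mTORC1 control, the share called higher was above the 26.0% of all genes. The share called lower was below the 29.3% of all genes in the same lists. Of 18 genes for eIF2 kinases, eIF2, eIF2B and their regulators, 9 were called higher and 5 lower (median log2 0.51). Eif2ak2 (PKR), the kinase that senses double-stranded RNA, was 7.75-fold lower in polysome mRNA. Of 17 bZIP partners and relatives, 9 were called higher and 4 lower, with Atf5, whose mRNA also carries upstream reading frames, 9.16-fold and Jdp2 8.61-fold higher. The ATF6 and XBP1 arm of the unfolded protein response, which raises chaperones and folding enzymes, had 10 of 20 higher and 1 lower (median log2 0.48), with Pdia6 at 2.62-fold and Dnajb11 at 2.30-fold. Of 14 other genes of mTORC1 control, 3 were called higher and 5 lower, Sesn3 at 3.71-fold lower among them. Of 18 p53 targets 7 were called higher and 2 lower. In 9 mRNAs known for translation under eIF2 phosphorylation, 6 were called higher and 1 lower. In a list of further genes with Trib, Chac, Nupr and Cebp symbols plus Atf5, 5 of 8 tested were called higher, Atf5 among them, and 0 lower. Genes such as Atf5, Gadd45a, Slc7a1 and Eprs recur across these lists and the target lists, so the counts are not independent. No test compared these lists with each other.

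Immediate early genes, which inhibitors of translation are known to raise in many cells, are given beside the fraction comparison because cycloheximide goes with the fraction. Of 19 tested, 8 were called higher in polysome mRNA at LF, 10 at MF and 6 at HF, and 2, 2 and 4 were called lower, with median log2 folds of 0.13, 0.58 and 0.30. Over all genes 25.0%, 26.0% and 25.7% were called higher at these doses and 28.5%, 29.3% and 30.7% lower. Their summed level was 390 to 566 TPM in the 6 polysome libraries, against 411 to 476 TPM in the 6 total libraries. Their part in the fraction difference of the 10 genes was not tested.

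**Figure D4:**
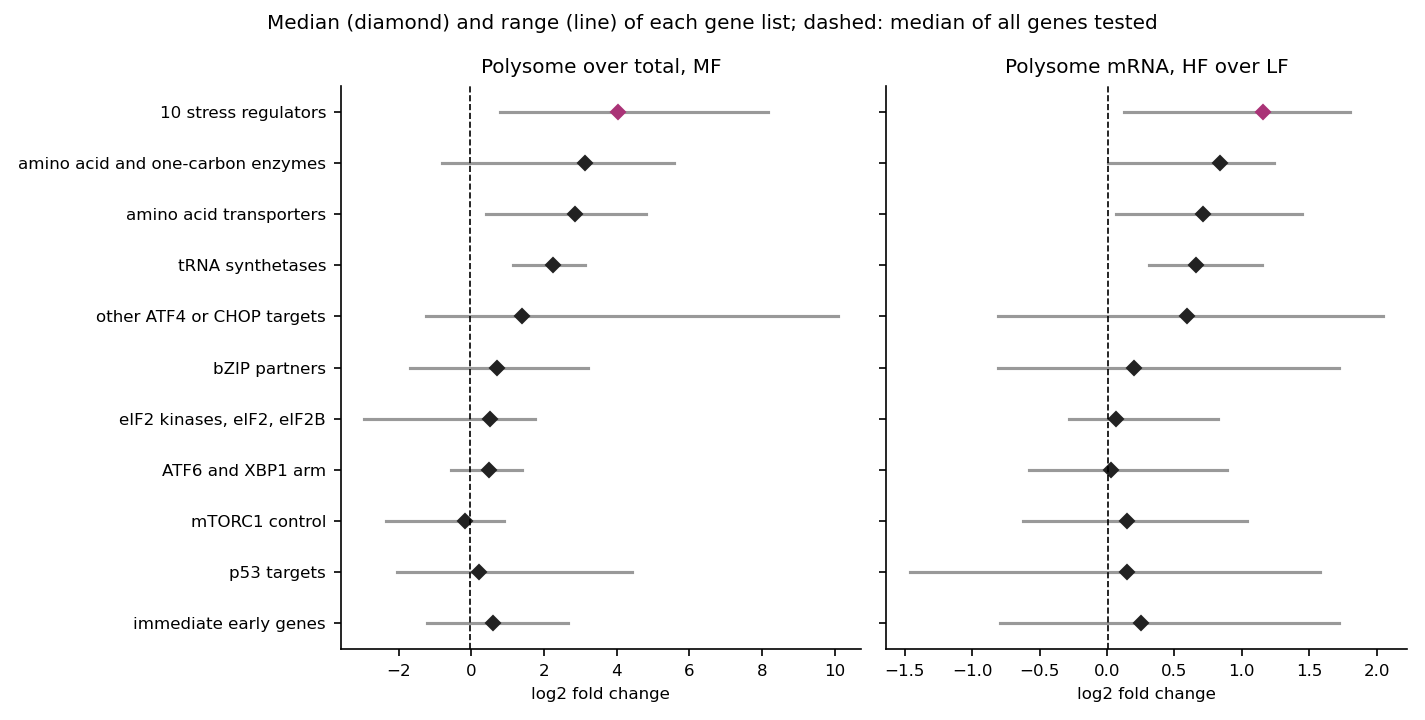
Median (diamond) and range (line) of the log2 fold change in the 10 genes and in 10 other lists, for polysome over total mRNA at MF (left) and for HF over LF in polysome mRNA (right), with the median of all genes dashed. The 10 genes have medians of 4.03 and 1.16, the 3 lists of ATF4 target enzymes, transporters and tRNA synthetases lie next, and the upper end of the other ATF4 or CHOP targets on the left is Fgf21, with 2 or fewer counts in every total library.

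In polysome mRNA the target lists had mostly positive log2 folds for HF against LF or MF. For LF against MF their log2 folds were mostly negative, and none of these comparisons gave a call. For HF against LF, log2 folds were positive in 15 of 15 enzymes (median 0.84), 11 of 11 transporters (median 0.71) and 13 of 13 genes of the tRNA synthetase list (median 0.66), beside a median of 0.01 over all genes, and edgeR called 0 in each list while 11, 7 and 11 genes had an unadjusted p under 0.05, against 14.0% of all genes. The other ATF4 or CHOP targets had 15 of 20 positive (median 0.59) with 10 at that level. In the ATF6 and XBP1 arm 11 of 20 were positive with a median of 0.03. For TE in HF against LF, Wars, the tryptophanyl-tRNA synthetase, was called at a log2 change of 1.10 ± 0.152 (SE; edgeR adjusted p = 0.0466). In total mRNA 3 of the 57 genes tested from the 4 target lists were called higher in HF than in LF, against 1.79% of all genes called in either direction, the cystine transporter Slc7a11 at a log2 fold of 0.79 ± 0.124, the growth arrest gene Gadd45a at 0.79 ± 0.124 and the mitochondrial folate enzyme Mthfd1l at 0.35 ± 0.083 (SE; edgeR adjusted p of 0.00384, 0.00161 and 0.0274).

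Markers of other cells were measured beside the dose pattern. The 10 mesenchymal and mural markers summed to 489 to 677 TPM at LF, 599 to 620 TPM at MF and 796 to 957 TPM at HF in polysome mRNA, so HF lay above LF and MF, which overlapped. In total mRNA they summed to 404 to 437 TPM at LF, 381 to 403 TPM at MF and 281 to 331 TPM at HF, lowest at HF. Of 9 tested markers, 6 had positive and 3 negative log2 folds for HF against LF in polysome mRNA (median 0.23). For the same doses in total mRNA, 1 was positive and 8 were negative (median -0.51). Of these markers Col1a1, Rgs5 and Cspg4 were under 1 TPM in every library. Neural stem cell markers summed to 9000 to 9020 TPM at LF, 7340 to 7640 TPM at MF and 7400 to 7840 TPM at HF in polysome mRNA, and to 7000 to 7070 TPM at LF, 7390 to 7790 TPM at MF and 8180 to 8810 TPM at HF in total mRNA. In bulk libraries fewer cells of a type and less RNA per cell cannot be told apart. The part of these markers in the dose pattern of the 10 genes was not tested.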

How the data were processed

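Poly(A)-selected mRNA of mouse SVZ neural stem cells was sequenced from total lysate and from polysome fractions. The authors aligned reads to mm10 with Bowtie2 2.2.9 and quantified genes with RSEM 1.3.0, and they deposited expected counts, TPM (transcripts scaled by length and to a fixed sum) and FPKM per gene for each library. FPKM were not used, and the RSEM strand setting is not given in the sources used here. Symbols came from GENCODE M21 (42548 of 43432 identifiers matched).

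Expected counts were rounded to whole numbers and tested with edgeR 4.0.16 (R 4.3.3; quasi-likelihood F test, TMM, filterByExpr, robust) over all genes, with Benjamini-Hochberg adjustment. Calls needed both an adjusted p below 0.05 and a fold over 1.2. Total mRNA (13912 genes) and polysome mRNA (13433 genes) were each fitted over 6 libraries with 3 residual degrees of freedom, and polysome over total and TE over 12 libraries (14421 genes, 6 residual degrees of freedom). Totals of 20506797 to 28170296 counts per library set the precision, and TPM are given as deposited. Alternatives were DESeq2 1.42.0, its size factors in edgeR, no low-count filter, the libraries compared alone, replicate number as a term, and each library left out. Scripts were tested on simulated data. From the other lists, genes called in a comparison were named, at most 4 per list and comparison, by smallest p. The 10 genes and the lists were chosen with earlier results of these data known. Promoters were RefSeq GRCm38.p6 windows. Python 3.11.15 with pandas 2.3.3, numpy 2.4.6 and matplotlib 3.10.9 was used for summaries and plots.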

Additional observations from a re-analysis of the deposited data

How the results depend on the processing

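With 2 libraries per group, and with the LF polysome libraries far apart, the counts of genes called between doses depended on the processing. For polysome over total mRNA, the log2 folds of the 10 genes stayed positive in every alternative, except that of Ddit4 at LF. The Ddit4 fold at LF ran from -0.24 to 0.51 with 1 library left out. With only the libraries compared, 8 of the 10 genes were called at LF, beside 3420 of 13754 genes in either direction. The count was 10 at MF, beside 9858 of 13804 genes, and 10 at HF, beside 9843 of 13785 genes. For HF against LF in polysome mRNA the count of 0 became 6 with no filter on low counts (1.26% of all genes called), 6 by DESeq2 (1.74%) and 4 with the replicate block (0.305%). For LF against MF in polysome mRNA it became 3 with no filter (2.71%), 2 by DESeq2 (3.31%) and 2 with the replicate block (1.72%), and for HF against MF it became 2 with only the libraries compared. For TE it became 3 with no filter (0.858%) and 4 by DESeq2 (3.21%) for HF against LF, 1 with no filter (1.05%) and 1 by DESeq2 (2.94%) for LF against MF, and 1 with only the libraries compared for HF against MF. The cause was not tested. With 1 library left out in turn, counts ran from 0 to 8 for HF against LF, 0 to 6 for LF against MF and 0 to 2 for HF against MF in polysome mRNA, from 0 to 7, 0 to 3 and 0 to 1 for TE in the same order, and from 0 to 2 for HF against LF in total mRNA. The other total comparisons stayed at 0. Each of these top counts came from a fit that kept only 1 LF library in a fraction, assumed to vary like the other groups. The shares of all genes called in such fits are given with each comparison above. For HF against LF and LF against MF, in polysome mRNA and in TE, these shares were far above those with all libraries. Replicate differences were only weakly correlated between groups (r between -0.14 and 0.138). Whether libraries of the same replicate number share a culture is not stated, so pairing is not settled. The replicate block changed no other count of the 10 genes by over 1.5 times.

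Of all 120 log2 folds of the 10 genes, 26 changed sign with a library left out, 15 of them among the 30 in total mRNA, and 0 of the 26 had been called. For the 13 among the folds examined one by one, which in total mRNA were those of Nupr1, Sesn2, Atf4 and Cebpb, the ranges were -0.08 to 0.0 for Atf4 in total LF against MF, -0.1 to 0.02 for Sesn2 in total HF against MF, -0.71 to 0.07 for Sesn2 and -0.8 to 0.09 for Atf4 in polysome LF against MF, -0.14 to 0.38 for Ddit4 and -0.01 to 0.12 for Sesn2 in polysome HF against MF, -0.01 to 0.76 for Sesn2 and -0.15 to 0.39 for Cebpb in polysome HF against LF, -0.76 to 0.11 for Atf4 and -0.45 to 0.19 for Cebpb in TE LF against MF, -0.14 to 0.36 for Ddit4 and -0.23 to 0.45 for Trib3 in TE HF against MF, and -0.24 to 0.51 for Ddit4 in polysome over total at LF.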
